A study of Homo sapiens with 9 samples.

Results

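The aminoacyl-tRNA synthetases are the enzymes that load each amino acid onto its transfer RNA before translation. The set described here holds 38 genes, taken by symbol, of the 58395 genes in each expression table. It holds 19 genes of cytosolic synthetases, 16 genes of mitochondrial synthetases, whose symbols end in 2, and the 3 scaffold genes AIMP1, AIMP2 and EEF1E1. All 38 genes passed the filter on low counts and were tested in every comparison.

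The levels come from 9 RNA-seq libraries of HCT116 cells, a human colon carcinoma line. All the cells carried shSTBD1, a hairpin RNA that knocks down STBD1, a protein that binds glycogen and that the study examined in glycogen autophagy. The 3 groups were stable lines selected after lentiviral infection, with 3 libraries each: plvx neo received the empty vector, STBD1 WT received a hairpin-resistant wild-type construct, and STBD1 W203C received the construct with a tryptophan-to-cysteine change, inside the motif through which STBD1 binds ATG8-family proteins. No library without the hairpin was analysed here, and each group is a single selected line, so a difference between constructs and a difference between selected lines cannot be told apart. File naming and sample labels disagree on which libraries are STBD1 WT and which STBD1 W203C. Groups follow the labels here, and with the names exchanged the directions between the constructs would reverse and their comparisons with plvx neo would trade places.

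Each synthetase activates an amino acid with ATP and transfers it to the matching tRNA, in the cytosol for the nuclear messages and in mitochondria for the few proteins encoded there. Most amino acids have a separate nuclear gene for each compartment, whereas GARS1 and KARS1 supply both. In animal cells a subset of the cytosolic enzymes is held in the multisynthetase complex by AIMP1, AIMP2 and EEF1E1. Several cytosolic synthetase genes are known targets of ATF4, the transcription factor of the amino acid response, which binds C/EBP-ATF response elements near their starts.

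The promoters of the set were searched for the core of that element, TGATGNAA, on both strands. This motif was chosen with earlier results of these data known, and a role of ATF4 was not tested. The windows ran from 250 bases before to 50 bases after each RefSeq start (GRCh38.p14) and were found for 16 cytosolic, 14 mitochondrial and 3 scaffold genes. Some genes had several windows, and a match in any of them was counted. The core was present for 7 of the 16 cytosolic genes, for 1 of the 14 mitochondrial genes and for 0 of the 3 scaffold genes. It was present for 4.46% of all 27305 genes with a promoter and for 2.65% of the 11151 such genes that were tested. Of ATF4 and the genes read with it further below, 2 of 9 had the core (22.2%). The 8 members with a match are printed with the matched 8 bases in capitals, on the strand of the gene and within 30 bases. The search fixed every base of the core but the N, which may be any base, so the matches are alike by construction. LARS1, VARS1, YARS1, AARS2 and VARS2 were not searched.
TARS1 (chr5:33440956-33440985, plus strand): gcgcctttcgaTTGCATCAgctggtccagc
GARS1 (chr7:30594834-30594863, plus strand): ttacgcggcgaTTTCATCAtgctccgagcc
IARS1 (chr9:92293692-92293721, minus strand): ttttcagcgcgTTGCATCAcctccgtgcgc
CARS1 (chr11:3057407-3057436, minus strand): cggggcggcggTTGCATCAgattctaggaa
MARS1 (chr12:57488053-57488082, plus strand): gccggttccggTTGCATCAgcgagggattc
AARS1 (chr16:70289675-70289704, minus strand): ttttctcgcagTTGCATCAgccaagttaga
NARS1 (chr18:57621804-57621833, minus strand): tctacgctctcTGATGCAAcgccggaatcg
YARS2 (chr12:32756076-32756105, minus strand): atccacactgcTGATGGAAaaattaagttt

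The same 8 letters, TTGCATCA or its reverse complement TGATGCAA, were found in TARS1, IARS1, CARS1, MARS1, AARS1 and NARS1. The first matched base lay at -2 in CARS1, -4 in MARS1, -13 in IARS1, -33 in GARS1, 3 in TARS1 and 15 in NARS1, counted from the RefSeq start of the window. In AARS1 and YARS2 it lay further out, at -187 and -197. Such a match is a description of the letters in this window and not a measured binding site.

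Total expected counts were 16.9 to 23.3 M per library (M, mega), and the 38 genes had between 104 and 9214 counts each in a library. The study's methods call the replicates biological, but whether they were separate cultures of a line is not given in the sources used here, so the p-values measure the spread between these libraries. STBD1 counted together with the overlapping read-through gene FAM47E-STBD1 was at 4.85 ± 0.751 TPM (SD, n = 3; a level per transcript length, with the same sum in every library) in plvx neo, whereas the STBD1 WT libraries held 54.6 ± 2.39 TPM and the STBD1 W203C libraries 46.1 ± 2.30 TPM. Of 7 colon epithelial markers, EPCAM, KRT8, KRT18, KRT19 and CDH1 were expressed, and CDH17 and VIL1 were at or near 0. For STBD1 WT vs plvx neo the 5 expressed ones were all called, in both directions, beside 27.8% of all genes changed. KRT8 at -0.43, KRT18 at -0.44 and EPCAM at -0.11 were lower and KRT19 at 0.43 and CDH1 at 0.27 higher (log2 fold changes). For STBD1 W203C vs STBD1 WT KRT19 at -0.40 and CDH1 at -0.27 were lower and EPCAM at 0.14 higher, beside 27.9% of all genes changed. For STBD1 W203C vs plvx neo KRT8 at -0.41 and KRT18 at -0.44 were lower, beside 5.7% of all genes changed. The summed level of the 7 was 3792 to 3889 TPM in plvx neo, 3388 to 3520 TPM in STBD1 WT and 3168 to 3429 TPM in STBD1 W203C. Of 8 markers of other cell types 6 were below 1 TPM in every library, and the summed level of all 8 was 16.5 to 19.1 TPM in plvx neo, 21.8 to 26 TPM in STBD1 WT and 15.4 to 20.3 TPM in STBD1 W203C, mostly COL1A1 and CD68, which were called higher for STBD1 WT vs plvx neo at 0.48 and 1.01 and lower for STBD1 W203C vs STBD1 WT at -0.49 and -1.48. These are bulk libraries, in which fewer cells with a message and less message per cell cannot be told apart. The sum for other cell types was thus higher in STBD1 WT than in both other groups, and the part of either marker sum in the synthetase results was not tested.

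The cytosolic synthetases were abundant and the mitochondrial enzymes were not. Levels between genes are compared in TPM, which is scaled by transcript length. The mean over the 9 libraries ran from 36.2 TPM for FARSB, the beta subunit of the phenylalanine enzyme, to 195.9 TPM for QARS1, the glutamine enzyme, with a median of 111 TPM over the 19 cytosolic genes. The mitochondrial genes ran from 3.17 TPM for WARS2, the tryptophan enzyme, to 66.5 TPM for IARS2, the isoleucine enzyme, with a median of 16.7 TPM. The 3 scaffolds lay between, with EEF1E1 at 80.3, AIMP2 at 45.2 and AIMP1 at 33.9 TPM.

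Re-expression of STBD1 WT went with lower cytosolic synthetase messages. The 19 cytosolic genes together held 2175, 2290 and 2262 TPM in the plvx neo libraries, 1849, 1812 and 1864 TPM in the STBD1 WT libraries and 2102, 2138 and 2204 TPM in the STBD1 W203C libraries. The STBD1 WT libraries were the 3 lowest, and plvx neo and STBD1 W203C overlapped. The group mean of this sum was 2242 ± 60.2 TPM (SD, n = 3) in plvx neo, whereas STBD1 WT held 1842 ± 26.5 TPM and STBD1 W203C held 2148 ± 51.6 TPM, so STBD1 WT was 17.9% below plvx neo.

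**Figure D1:**
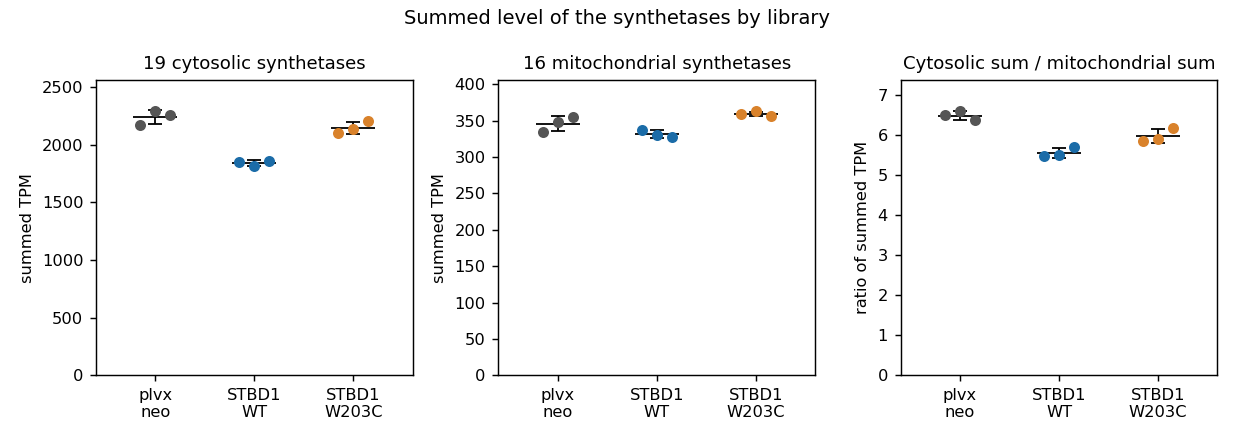
Summed TPM of the 19 cytosolic synthetases, of the 16 mitochondrial synthetases and the ratio of these sums, by group. Points are libraries, the bar is the mean and the whiskers are 1 SD (n = 3), and the STBD1 WT libraries are the 3 lowest in the left panel and in the ratio.

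For STBD1 WT vs plvx neo, 17 of the 19 cytosolic genes were lower and 2, QARS1 and VARS1, were higher (edgeR quasi-likelihood test, Benjamini-Hochberg adjusted p below 0.05). Of all 15289 genes tested, 27.8% were changed, 13.9% lower and 13.9% higher. The median log2 fold change of the 19 genes was -0.33, against 0.01 over all genes tested, and single values ran from -0.62 to 0.13. CPM, counts scaled to library size, did not overlap between the groups for each of the 19 genes, as for 40.4% of all genes tested. The changes were modest in size: WARS1, CARS1 and YARS1 alone passed the threshold with a change of at least 1.5-fold, as 3.54% of all genes did. All 3 were lower, whereas of the 541 genes with such a change 466 were higher, 3.05% of all genes, and 75 lower, 0.491%.

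WARS1 (ENSG00000140105, chr14:100333790-100376805, minus strand), the tryptophan enzyme and also an interferon-inducible gene, was at 138, 143 and 142 TPM in plvx neo, at 94.2, 96.8 and 95.4 TPM in STBD1 WT and at 118, 131 and 148 TPM in STBD1 W203C. Every STBD1 WT library was below all the others, and the STBD1 W203C libraries spread across the plvx neo range. The log2 fold change was -0.62 (SE 0.0409, adjusted p = 1e-09) for STBD1 WT vs plvx neo. CARS1 (ENSG00000110619, chr11:3000922-3057613, minus strand), the cysteine enzyme, was at 64.8, 64.9 and 66.7 TPM in plvx neo, 44.5, 40.7 and 45.1 TPM in STBD1 WT and 47.5, 51.7 and 52.9 TPM in STBD1 W203C. Its 3 groups were fully separated, with STBD1 W203C nearer to STBD1 WT. For STBD1 WT vs plvx neo CARS1 had a log2 fold change of -0.62 (SE 0.0405, adjusted p = 9.09e-10).

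YARS1 (ENSG00000134684, chr1:32775237-32818031, minus strand), the tyrosine enzyme, was at 115, 128 and 127 TPM in plvx neo, 77.0, 80.5 and 79.0 TPM in STBD1 WT and 101, 100.02 and 109 TPM in STBD1 W203C. The groups did not overlap, and STBD1 W203C lay between the others. YARS1 was lower in STBD1 WT than in plvx neo by a log2 fold change of -0.60 (SE 0.0365, adjusted p = 3.3e-10). SARS1 (ENSG00000031698, chr1:109213918-109238182, plus strand), the serine enzyme, which also charges the selenocysteine tRNA, was at 132, 137 and 139 TPM in plvx neo, 90.8, 95.2 and 91.0 TPM in STBD1 WT and 102, 106 and 116 TPM in STBD1 W203C. Again the 3 groups were apart in the same order. SARS1 had a log2 fold change of -0.58 (SE 0.0379, adjusted p = 9.09e-10).

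**Figure D2:**
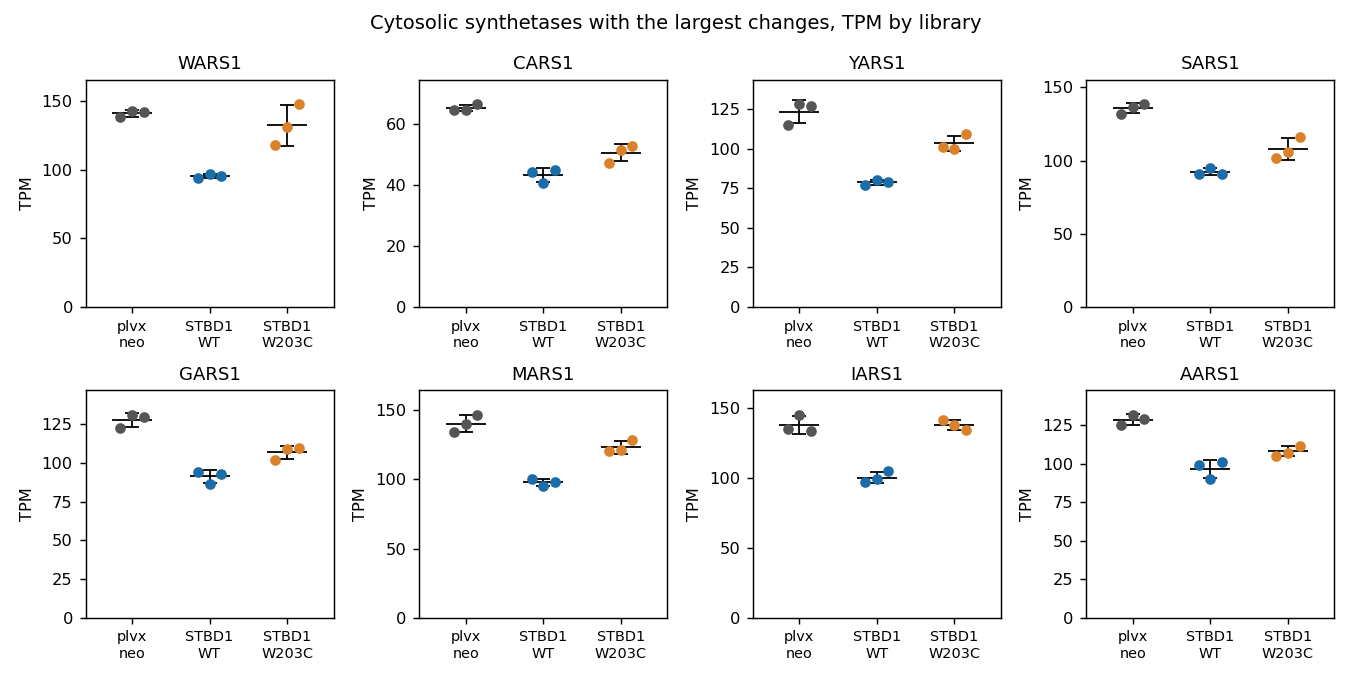
TPM by library of the 8 cytosolic synthetases with the largest called changes, each axis starting at 0. Points are libraries, the bar is the mean and the whiskers are 1 SD (n = 3), and in each panel the 3 STBD1 WT points lie below every plvx neo point.

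GARS1 (ENSG00000106105, chr7:30580533-30634033, plus strand), the glycine enzyme of both compartments, was at 122, 131 and 129.6 TPM in plvx neo, 94.3, 86.6 and 92.9 TPM in STBD1 WT and 102, 109 and 109 TPM in STBD1 W203C. It was lowest in the 3 STBD1 WT libraries and highest in the 3 plvx neo libraries. GARS1 was lower in STBD1 WT than in plvx neo by a log2 fold change of -0.56 (SE 0.0366, adjusted p = 9.09e-10). KARS1 (ENSG00000065427, chr16:75627474-75648643, minus strand), the lysine enzyme of both compartments and a member of the multisynthetase complex, was at 156, 160.0 and 161 TPM in plvx neo, 130.3, 129.8 and 124 TPM in STBD1 WT and 149, 151 and 164 TPM in STBD1 W203C. STBD1 WT was again the lowest, whereas the other groups overlapped. KARS1 had a smaller log2 fold change, -0.31 (SE 0.0395, adjusted p = 8.07e-06).

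MARS1 (ENSG00000166986, chr12:57475445-57517569, plus strand), the methionine enzyme of the complex, was at 134, 139.8 and 147 TPM in plvx neo, 100.3, 95.5 and 98.1 TPM in STBD1 WT and 120.2, 121 and 129 TPM in STBD1 W203C. The groups were apart, with STBD1 W203C in the middle. Its log2 fold change was -0.52 (SE 0.0361, adjusted p = 2.15e-09). MARS1 shares 355 exon bases on the opposite strand with DDIT3 and 519 with ARHGAP9, and whether counting used strand is not given in the sources used here. DDIT3 itself was at 14.7 to 20.3 TPM in the 9 libraries. Other genes given in full or added to them also share exon bases on the opposite strand. These are WARS1 (385 and 287 bases), YARS1 (396), GARS1 (312), CARS1 (205 and 76), KARS1 (176), AARS1 (43), FARSA (25), YARS2 (388), LARS2 (81) and NARS2 (111). Their expected counts were whole numbers in every library, whereas those of MARS1 held fractions. The overlaps are from GENCODE release 44 and counting used Ensembl release 93, so some partners may not have been counted.

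IARS1 (ENSG00000196305, chr9:92210207-92293854, minus strand), the isoleucine enzyme of the complex, was at 135, 145 and 134 TPM in plvx neo, 96.8, 99.3 and 105 TPM in STBD1 WT and 142, 138 and 135 TPM in STBD1 W203C. The STBD1 WT libraries were the 3 lowest, and STBD1 W203C lay within the plvx neo range. IARS1 had a log2 fold change of -0.46 (SE 0.0372, adjusted p = 1.83e-08). AARS1 (ENSG00000090861, chr16:70251983-70289707, minus strand), the alanine enzyme, was at 125, 132 and 129 TPM in plvx neo, 99.3, 89.9 and 101 TPM in STBD1 WT and 105, 107 and 112 TPM in STBD1 W203C. These groups did not overlap and kept the order seen for MARS1. The log2 fold change of AARS1 was -0.44 (SE 0.0358, adjusted p = 1.84e-08).

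The remaining lower genes ranged from EPRS1, the fused glutamate and proline enzyme, at -0.43 (SE 0.0361), through FARSB at -0.33, TARS1 (threonine) at -0.32, NARS1 (asparagine) at -0.29, LARS1 (leucine) at -0.21, RARS1 (arginine) at -0.18 and HARS1 (histidine) at -0.17, to FARSA, the alpha subunit of the phenylalanine enzyme, at -0.12 (SE 0.0408). EPRS1 was the gene just outside the 8 shown in full. In limma fits of log2(TPM + 1) the genes NARS1, LARS1, RARS1, HARS1, FARSA and VARS1 were not called. FARSA overlapped between the groups in TPM, and its call with counts was lost without plvx neo replicate 1 or 3 or STBD1 WT replicate 2 or 3.

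QARS1 (ENSG00000172053, chr3:49095932-49105130, minus strand), the glutamine enzyme of the complex, went the other way. It was at 179, 190.4 and 176 TPM in plvx neo, 196, 212 and 226 TPM in STBD1 WT and 189.9, 203.5 and 190.3 TPM in STBD1 W203C. The STBD1 WT libraries were all above plvx neo and overlapped with STBD1 W203C. The log2 fold change was 0.13 (SE 0.0387, adjusted p = 0.0175), and the call was lost without plvx neo replicate 3 or without STBD1 WT replicate 2. VARS1, the valine enzyme, was at 124, 123 and 122 TPM in plvx neo, 144, 131 and 130.2 TPM in STBD1 WT and 141, 138 and 129.8 TPM in STBD1 W203C. The plvx neo libraries were the 3 lowest for VARS1. Its log2 fold change was 0.11 (SE 0.0377, adjusted p = 0.0384), and this call was lost with any library but plvx neo replicate 1 left out.

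Lower genes were found inside and outside the multisynthetase complex and in both catalytic classes. These counts stand beside 13.9% of all genes lower and 13.9% higher. Of the 7 cytosolic synthetases in the multisynthetase complex, 6 were lower and 1 higher, with a median log2 fold change of -0.31, and of the 12 outside it, 11 were lower and 1 higher, with a median of -0.38. Of 9 class I enzymes, 7 were lower and 2 higher, with a median of -0.46. All 9 class II enzymes were lower, with a median of -0.32, and EPRS1, which joins a domain of each class, was in neither count. The 7 cytosolic genes with the printed core had values from -0.62 to -0.29 with a median of -0.46, and the 9 searched genes without it had values from -0.62 to 0.13 with a median of -0.31. The ranges overlapped, and the lowest value in the second group was that of WARS1.

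**Figure D3:**
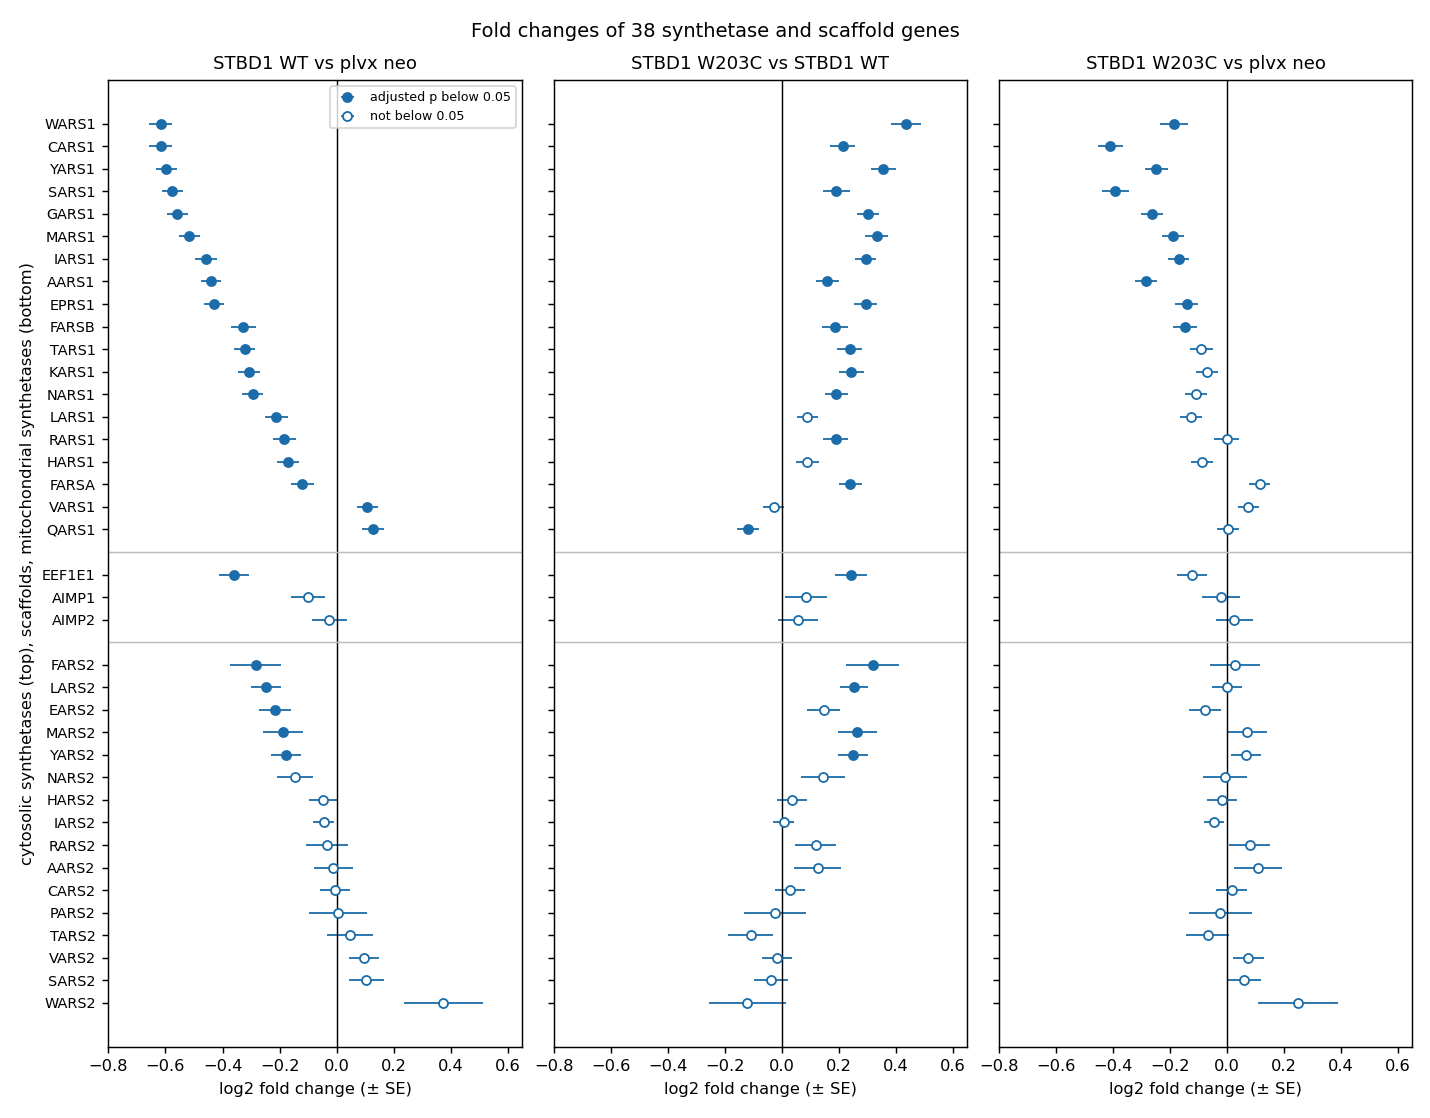
Log2 fold changes of all 38 genes with their SE in the 3 comparisons, ordered by STBD1 WT vs plvx neo, with filled points for an adjusted p below 0.05. In the left panel 17 cytosolic genes are filled to the left of 0 and 2 to the right, and the mitochondrial genes lie closer to 0.

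The STBD1 W203C libraries had higher cytosolic synthetase messages than the STBD1 WT libraries. Of the 19 genes 15 were higher, QARS1 was lower, and HARS1, LARS1 and VARS1 did not pass the test. Of all 15052 genes tested in STBD1 W203C vs STBD1 WT, 27.9% were changed, 14.5% higher and 13.4% lower. The median log2 fold change of the 19 genes was 0.21, against -0.01 over all genes. CPM did not overlap between the groups for 18 of the 19, as for 41.3% of all genes tested. This comparison uses the same STBD1 WT libraries as the one before, so its directions are not independent of those and are given as values of their own.

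WARS1 had the largest value among the cytosolic genes, a log2 fold change of 0.44 (SE 0.0526, adjusted p = 3.26e-06). It was followed by YARS1 at 0.36 (SE 0.0433, adjusted p = 3.58e-06), MARS1 at 0.33 (SE 0.04, adjusted p = 3e-06), GARS1 at 0.30 (SE 0.0394, adjusted p = 8.1e-06), EPRS1 at 0.29 (SE 0.04) and IARS1 at 0.29 (SE 0.0373, adjusted p = 5.96e-06). Smaller values were found for KARS1 at 0.24 (SE 0.0437), CARS1 at 0.21 (SE 0.0453, adjusted p = 0.00127), SARS1 at 0.19 (SE 0.0475, adjusted p = 0.00452) and AARS1 at 0.16 (SE 0.0414, adjusted p = 0.00594). The order of the genes was therefore not the same as for STBD1 WT vs plvx neo, where CARS1 and SARS1 stood near the top.

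The other genes called higher were FARSA at 0.24, TARS1 at 0.24, NARS1 at 0.19, RARS1 at 0.19 and FARSB at 0.18. In limma fits of log2(TPM + 1) AARS1, CARS1 and QARS1 were not called. QARS1 was lower by a log2 fold change of -0.12 (SE 0.0382, adjusted p = 0.0226), a call lost without STBD1 WT replicate 2 or 3 or without STBD1 W203C replicate 1 or 2. HARS1 and LARS1 had values of 0.09 each, with adjusted p = 0.0943 and 0.0833, and VARS1 had a value of -0.03. None of the 19 reached a 1.5-fold change with the test passed, which 3.13% of all genes did. Beside the 14.5% of all genes that were higher, 5 of the 7 genes in the complex were higher and 1 lower, with a median of 0.24, and 10 of the 12 outside it were higher, with a median of 0.20.

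Against plvx neo, part of the cytosolic genes were lower in STBD1 W203C. AARS1, CARS1, EPRS1, FARSB, GARS1, IARS1, MARS1, SARS1, WARS1 and YARS1 were lower, 10 of the 19, and the other 9 did not pass the test. Of all 15081 genes tested, 5.7% were changed, 3.03% higher and 2.67% lower. The median log2 fold change of the 19 genes was -0.14, and it was -0.00 over all genes. CPM did not overlap for 14 of the 19, as for 23.5% of all genes tested, and 0 of the 19 were called with a change of at least 1.5-fold, as 0.69% of all genes were. This comparison shares its plvx neo libraries with the first and its STBD1 W203C libraries with the second.

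CARS1 and SARS1 were the lowest, with log2 fold changes of -0.41 (SE 0.0447, adjusted p = 1.52e-06) and -0.39 (SE 0.0458, adjusted p = 4.34e-06). AARS1 was at -0.28 (SE 0.0392, adjusted p = 4.22e-05), GARS1 at -0.26 (SE 0.0389, adjusted p = 0.0001), YARS1 at -0.25 (SE 0.0408, adjusted p = 0.000373) and MARS1 at -0.19 (SE 0.0385, adjusted p = 0.0032). WARS1 was at -0.19 (SE 0.0487, adjusted p = 0.0216), IARS1 at -0.17 (SE 0.0369, adjusted p = 0.00568), FARSB at -0.15 (SE 0.0432) and EPRS1 at -0.14 (SE 0.0394). KARS1, at -0.07 (SE 0.0392, adjusted p = 0.356), was not called.

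The count of 10 rested partly on single libraries. It was 6 without STBD1 W203C replicate 1 and 12 without STBD1 W203C replicate 3. STBD1 W203C replicate 3 had the highest WARS1 and SARS1 of its group, and leaving out plvx neo replicate 1 or 3 or STBD1 W203C replicate 1 or 2 ended the WARS1 call. The calls of EPRS1 and FARSB were lost without most single libraries, and that of IARS1 without STBD1 W203C replicate 1. Limma fits of log2(TPM + 1) called 3 of the 19 lower, AARS1, CARS1 and SARS1, and FARSA higher. Of all 13776 genes in that fit, 32 were called lower and 86 higher.

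Counts and TPM gave different values for several genes, of which IARS1 and FARSA are given in full. The mean effective length that the authors' program used for IARS1 was 3223 ± 45.8 bases (SD, n = 3) in plvx neo, 3200 ± 32.6 bases in STBD1 WT and 2933 ± 149 bases in STBD1 W203C. In TPM, which divides by that length, the STBD1 W203C and plvx neo libraries overlapped, with a log2 ratio of 0.00 between the means against the -0.17 from counts. For FARSA the effective length was 1337 ± 27.0 bases in plvx neo, 1245 ± 26.5 bases in STBD1 WT and 1246 ± 30.2 bases in STBD1 W203C. FARSA was at 153, 160.4 and 159 TPM in plvx neo, 168, 144 and 152 TPM in STBD1 WT and 191, 182 and 189 TPM in STBD1 W203C. The STBD1 W203C libraries were thus the highest in TPM, with a log2 ratio of 0.25 to plvx neo, whereas counts gave 0.11 (SE 0.0368, adjusted p = 0.0702).

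Other members differed between the scales too. For STBD1 W203C vs plvx neo the value had the other sign in TPM for 3 of the 19 cytosolic and 6 of the 16 mitochondrial genes, for STBD1 W203C vs STBD1 WT for 1 and 4, and for STBD1 WT vs plvx neo for 0 and 0. NARS1 was at -0.11 from counts and at 0.02 as the log2 ratio of mean TPM for STBD1 W203C vs plvx neo, with an effective length of 2143 ± 40.9 bases (SD, n = 3) in plvx neo and 1999 ± 32.2 bases in STBD1 W203C. NARS2, the mitochondrial asparagine enzyme, was at -0.15 from counts and -0.30 from TPM for STBD1 WT vs plvx neo, and it was not called on either scale.

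The mitochondrial synthetases moved less. Their summed level was 334, 348 and 355 TPM in plvx neo, 338, 330.1 and 327 TPM in STBD1 WT and 359, 363 and 356 TPM in STBD1 W203C. The STBD1 WT libraries overlapped with plvx neo and lay below every STBD1 W203C library. The means were 346 ± 10.4, 332 ± 5.28 and 359 ± 3.19 TPM (SD, n = 3), so that STBD1 WT was 4.05% below plvx neo and STBD1 W203C was 8.28% above STBD1 WT. The cytosolic sum was 6.37 to 6.59 times the mitochondrial sum in plvx neo, 5.48 to 5.69 times in STBD1 WT and 5.86 to 6.19 times in STBD1 W203C, and these ranges did not overlap.

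For STBD1 WT vs plvx neo, 5 of the 16 mitochondrial genes (31.25%) were changed, all of them lower. The share changed was near that over all genes, 27.8%, whereas the share lower was above that over all genes, 13.9%. No test was made over the 16 genes. The 5 genes were FARS2, LARS2, EARS2, MARS2 and YARS2, the phenylalanine, leucine, glutamate, methionine and tyrosine enzymes. The other 11 did not pass the test. The median over the 16 genes was -0.04, with values from -0.28 to 0.37. In limma fits of log2(TPM + 1) 0 of the 16 were called, and DESeq2 called 3. Of all genes, limma called 1701 of 13856 and DESeq2 called 3471 of 15289. The number of lower genes was 2 with plvx neo replicate 1 left out, 2 with STBD1 WT replicate 1 left out, where WARS2 was called higher, and 3 with plvx neo replicate 2 or STBD1 WT replicate 2 left out.

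FARS2 (ENSG00000145982, chr6:5261044-5829192, plus strand) was at 10.7, 11.1 and 10.9 TPM in plvx neo, 8.06, 9.54 and 9.5 TPM in STBD1 WT and 11.9, 11.7 and 10.5 TPM in STBD1 W203C. STBD1 WT held the lowest 3 values. FARS2 had a log2 fold change of -0.28 (SE 0.0895, adjusted p = 0.0221) for STBD1 WT vs plvx neo and 0.32 (SE 0.0924, adjusted p = 0.0129) for STBD1 W203C vs STBD1 WT. Each call was lost without STBD1 WT replicate 1, the first also without plvx neo replicate 1 or 2 and the second without STBD1 W203C replicate 1, and neither was made by limma on TPM. DESeq2 did not make the first of them either. LARS2 (ENSG00000011376, chr3:45388561-45554726, plus strand) was at 17, 16.3 and 16.5 TPM in plvx neo, 14.5, 13.2 and 14.4 TPM in STBD1 WT and 17.2, 17.6 and 17 TPM in STBD1 W203C. STBD1 WT was apart and below, and the other groups overlapped. LARS2 had log2 fold changes of -0.25 (SE 0.0533, adjusted p = 0.00152) and 0.25 (SE 0.0497, adjusted p = 0.000615), which kept their calls when any single library was left out.

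YARS2 (ENSG00000139131, chr12:32727490-32755897, minus strand), the mitochondrial gene with the printed core, was at 27.4, 27.7 and 28.5 TPM in plvx neo, 24.1, 24.7 and 25.1 TPM in STBD1 WT and 29.9, 30.2 and 29.8 TPM in STBD1 W203C. The 3 groups were apart, with STBD1 W203C the highest. Its log2 fold changes were -0.18 (SE 0.0525, adjusted p = 0.0154), a call lost without plvx neo replicate 1 or STBD1 WT replicate 1, and 0.25 (SE 0.052, adjusted p = 0.00101). MARS2 (ENSG00000247626, chr2:197705369-197708395, plus strand) was at 9.58, 10.1 and 10.9 TPM in plvx neo, 9.08, 9.04 and 8.66 TPM in STBD1 WT and 11.03, 10.89 and 11.11 TPM in STBD1 W203C. STBD1 WT was the lowest group throughout. MARS2 had log2 fold changes of -0.19 (SE 0.0687, adjusted p = 0.0467), lost without any single library, and 0.26 (SE 0.0679, adjusted p = 0.0056). EARS2 was at -0.22 (SE 0.056, adjusted p = 0.00613), a call lost without STBD1 WT replicate 2, and at 0.15 (adjusted p = 0.0658) in STBD1 W203C vs STBD1 WT.

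**Figure D4:**
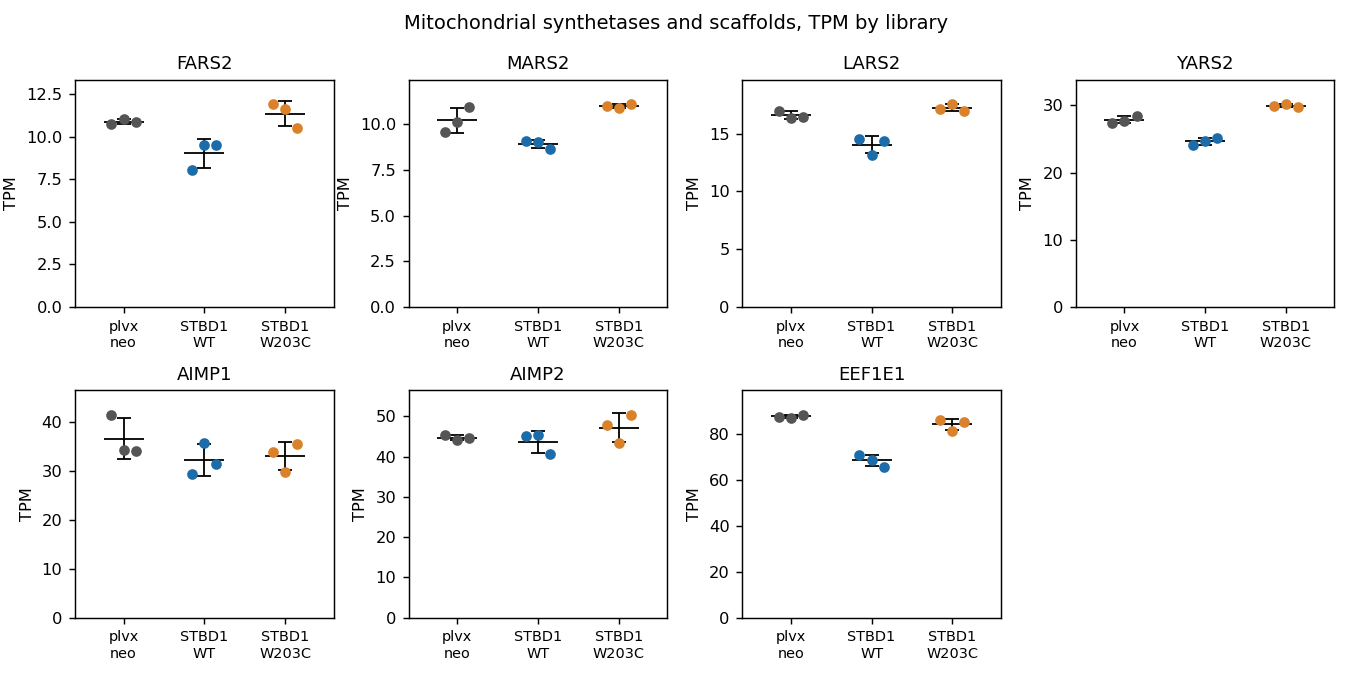
TPM by library of the 4 mitochondrial synthetases with the largest called changes between STBD1 WT and either other group and of the 3 scaffolds, each axis starting at 0. Points are libraries, the bar is the mean and the whiskers are 1 SD (n = 3), and STBD1 WT is the lowest group for FARS2, MARS2, LARS2, YARS2 and EEF1E1 while AIMP1 and AIMP2 overlap.

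For STBD1 W203C vs STBD1 WT, 4 of the 16 mitochondrial genes (25%), FARS2, LARS2, MARS2 and YARS2, were changed, all of them higher. Of all genes 27.9% were changed and 14.5% higher. The share changed was thus not above that over all genes, whereas the share higher was, and no test was made over the 16 genes. The median of the 16 was 0.08. Between STBD1 W203C and plvx neo 0 of the 16 were called by edgeR, by DESeq2 or by limma on TPM, and 0 had an unadjusted p below 0.05, beside 5.7% of all genes called. Their median there was 0.02, with values from -0.08 to 0.25. WARS2, the least abundant gene of the set, had the widest errors, with a log2 fold change of 0.37 (SE 0.1396, adjusted p = 0.0521) for STBD1 WT vs plvx neo that passed the threshold when all 9 libraries were fitted together (adjusted p = 0.0416) or when STBD1 WT replicate 1 was left out (adjusted p = 0.0343). Among the genes that did not pass, SARS2 (serine) at 0.10 and VARS2 (valine) at 0.10 had values above 0, and each shares exons on its own strand with another annotated gene, over 1492 and 4073 bases. HARS2 (histidine), which starts head to head with HARS1 and shares 108 exon bases with it, had a value of -0.05.

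Of the 3 scaffolds, EEF1E1 was called lower for STBD1 WT vs plvx neo and AIMP1 and AIMP2 were not, 1 of 3 beside the 27.8% of all genes that were changed and the 13.9% that were lower. EEF1E1 (ENSG00000124802, chr6:8073360-8102559, minus strand), which holds the methionine enzyme in the complex, was at 87.8, 87.1 and 88.5 TPM in plvx neo, 71.0, 69.0 and 65.9 TPM in STBD1 WT and 86.2, 81.6 and 85.5 TPM in STBD1 W203C. The STBD1 WT libraries were well below both other groups. Its log2 fold change was -0.36 (SE 0.0529, adjusted p = 3.99e-05) for STBD1 WT vs plvx neo, 0.24 (SE 0.055, adjusted p = 0.00216) for STBD1 W203C vs STBD1 WT and -0.12 (SE 0.0531, adjusted p = 0.199) for STBD1 W203C vs plvx neo. EEF1E1 shares 393 exon bases on its own strand with the read-through gene EEF1E1-BLOC1S5, so its level is uncertain to that extent.

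AIMP1 (ENSG00000164022, chr4:106315544-106349456, plus strand), which binds the arginine and glutamine enzymes, was at 41.4, 34.2 and 34.0 TPM in plvx neo, 29.3, 35.7 and 31.4 TPM in STBD1 WT and 33.8, 29.8 and 35.4 TPM in STBD1 W203C. All 3 groups overlapped. Its log2 fold change for STBD1 WT vs plvx neo was -0.10 (SE 0.0599, adjusted p = 0.233), and without STBD1 WT replicate 2 it was -0.18 (adjusted p = 0.0487). AIMP2 (ENSG00000106305, chr7:6009255-6023834, plus strand), which anchors the lysine enzyme, was at 45.3, 44.1 and 44.7 TPM in plvx neo, 45.1, 45.3 and 40.6 TPM in STBD1 WT and 47.8, 43.4 and 50.4 TPM in STBD1 W203C. These groups overlapped too, and the log2 fold change was -0.03 (SE 0.0623, adjusted p = 0.803). On the opposite strand AIMP1 shares 476 exon bases with TBCK and AIMP2 shares 532 with EIF2AK1, so both levels are uncertain to that extent. Between STBD1 W203C and plvx neo 0 of the 3 scaffolds were called by edgeR, DESeq2 or limma, and 1 had an unadjusted p below 0.05. Over all genes, edgeR called 5.7% changed there.

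The enzymes of the same amino acid could be set side by side in 16 pairs, with EPRS1 taken for both EARS2 and PARS2 and FARSA for FARS2. The cytosolic message was the more abundant in every pair, from 1.47 times for CARS1 and CARS2 to 38.8 times for WARS1 and WARS2 (mean TPM over 9 libraries). For STBD1 WT vs plvx neo the cytosolic log2 fold change lay below the mitochondrial in 13 of 16 pairs, and the median difference, mitochondrial minus cytosolic, was 0.35. The exceptions were FARSA and FARS2, LARS1 and LARS2, and VARS1 and VARS2. The first of these depends on the subunit taken, since FARSB was at -0.33, below FARS2 at -0.28. The widest gaps were 0.99 for WARS1 and WARS2, 0.68 for SARS1 and SARS2, and 0.61 for CARS1 and CARS2. Here CARS2 was at -0.01 and SARS2 at 0.10 while their cytosolic partners were among the lowest. The median difference was -0.09 for STBD1 W203C vs STBD1 WT and 0.12 for STBD1 W203C vs plvx neo, and no test was made over the pairs.

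**Figure D5:**
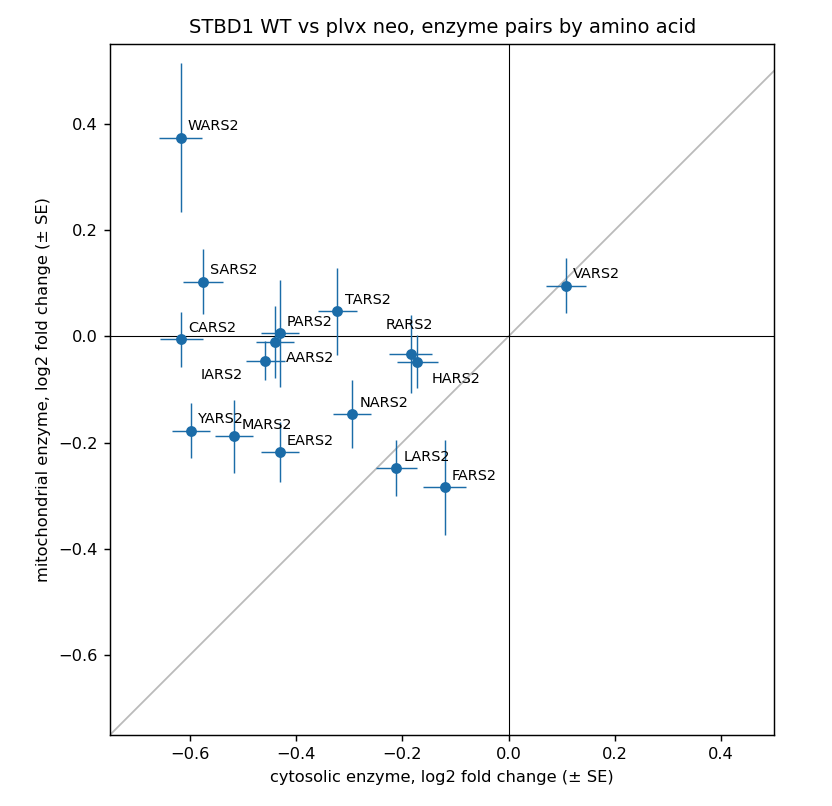
Log2 fold change of the mitochondrial enzyme against that of the cytosolic enzyme for the same amino acid, STBD1 WT vs plvx neo, with SE bars and named by the mitochondrial gene. The grey line marks equal change, and 13 of 16 pairs lie above it.

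ATF4 and 8 genes known to respond to it or to the same pathway were read beside the synthetases. For STBD1 WT vs plvx neo 5 of these 9 were lower and DDIT4 was higher at 0.24, beside 13.9% of all genes lower and 13.9% higher. The other 3, DDIT3 at 0.07, SESN2 at 0.08 and CEBPB at 0.03, did not pass. DESeq2 and limma on TPM each called 5 of the 9, beside 3471 of 15289 and 1701 of 13856 genes. ATF4 was at 404, 424 and 430.4 TPM in plvx neo, 337, 341 and 335 TPM in STBD1 WT and 356, 357 and 359 TPM in STBD1 W203C. All the plvx neo libraries were the highest and all the STBD1 WT libraries the lowest. The log2 fold change of ATF4 was -0.30 (SE 0.0349, adjusted p = 2.6e-06) for STBD1 WT vs plvx neo, 0.04 (SE 0.0354, adjusted p = 0.448) for STBD1 W203C vs STBD1 WT and -0.26 (SE 0.0336, adjusted p = 1.47e-05) for STBD1 W203C vs plvx neo.

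ASNS, asparagine synthetase, which makes the amino acid and charges no tRNA, was at 195, 202 and 198 TPM in plvx neo, 77.1, 78.0 and 74.3 TPM in STBD1 WT and 129, 124 and 153 TPM in STBD1 W203C. The groups were far apart, with STBD1 W203C in the middle and its replicate 3 the highest of its group. Its log2 fold change was -1.45 (SE 0.0389) for STBD1 WT vs plvx neo and 0.85 (SE 0.063) for STBD1 W203C vs STBD1 WT. PSAT1, an enzyme of serine synthesis, had values of -1.31 and 0.72, and CHAC1, which breaks down glutathione, had -0.85 and 0.18, the latter not called. Each of these 3 genes had a value lower than that of any synthetase for STBD1 WT vs plvx neo. Of the 9 genes of this list 3 were higher and 2 lower for STBD1 W203C vs STBD1 WT, and 5 were lower for STBD1 W203C vs plvx neo. Over all genes 14.5% were higher and 13.4% lower in the first of these comparisons and 2.67% lower in the second. DESeq2 called 3 and limma on TPM 2 of the 9 in the first, beside 3293 of 15052 and 1779 of 13858 genes. In the second DESeq2 called 5 and limma 3, beside 679 of 15081 and 118 of 13776 genes. Without the filter on low values limma called 0 of the 9 there, beside 15 of 27326 genes.

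Other genes that handle tRNAs were read beside 13.9% of all genes lower and 27.8% changed for STBD1 WT vs plvx neo. For STBD1 W203C vs STBD1 WT 14.5% of all genes were higher and 27.9% changed. Of 7 genes for tRNA end maturation, export and modification by the KEOPS complex, 3 were lower for STBD1 WT vs plvx neo. They were XPOT, the tRNA exporter, at -0.52 (SE 0.0393), TPRKB, a subunit of the KEOPS complex, at -0.33 (SE 0.0692), and ELAC2, which trims the 3′ end, at -0.20 (SE 0.0386). The other KEOPS genes of the list, OSGEP at -0.18, TP53RK at -0.04 and LAGE3 at 0.12, were not called. XPOT, TPRKB and ELAC2 were all called higher for STBD1 W203C vs STBD1 WT, at 0.31, 0.26 and 0.23. Of 9 genes for charging, editing and mitochondrial amidation, 3 were lower, among them GATB and QRSL1, subunits of the mitochondrial amidotransferase that makes glutaminyl-tRNA, at -0.25 (SE 0.0566) and -0.23 (SE 0.0721), and PSTK, at -0.38 (SE 0.173, adjusted p = 0.113), was not called. For STBD1 W203C vs STBD1 WT 3 of these 9 were higher. Limma on TPM called 1 of the 9 in each of these comparisons, and DESeq2 called 3. Over all genes limma called 1701 of 13856 and 1779 of 13858, and DESeq2 called 3471 of 15289 and 3293 of 15052. Between STBD1 W203C and plvx neo 0 of the 9 were called by edgeR, DESeq2 or limma, with 1 at an unadjusted p below 0.05. Over all genes, edgeR called 5.7% changed there and 2.67% lower. Of the 7 end maturation, export and KEOPS genes XPOT was lower there, at -0.22 (SE 0.0419), a call that limma on TPM did not make.

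The elongation factors, which bring charged tRNAs to the ribosome and move it along, were mixed. Of 6 cytosolic factors 3 were higher and 2 lower for STBD1 WT vs plvx neo, with EEF2 at 0.21 (SE 0.0365) and EEF1A1 at 0.19 (SE 0.0394) higher and EEF1D at -0.12 (SE 0.04) lower, beside 13.9% of all genes in each direction. Of 4 mitochondrial factors 2 were lower, GFM1 at -0.23 (SE 0.0512) and TSFM at -0.23 (SE 0.0542). For STBD1 W203C vs STBD1 WT 2 of the 6 cytosolic factors, EEF1A1 and EEF2, were lower, and 2 of the 4 mitochondrial factors, GFM1 and TSFM, were higher, beside 13.4% of all genes lower and 14.5% higher. Limma on log2(TPM + 1) called 2 of the 6 cytosolic factors for STBD1 WT vs plvx neo, or 1 without the filter, and 0 for STBD1 W203C vs STBD1 WT. It called 0 and 1 of the 4 mitochondrial factors in these comparisons, whereas DESeq2 called 5 and 3 cytosolic and 2 and 2 mitochondrial factors. Over all genes limma called 1701 of 13856 and 1779 of 13858, and DESeq2 called 3471 of 15289 and 3293 of 15052. Without the filter limma called 970 of 27637 genes for STBD1 WT vs plvx neo. Between STBD1 W203C and plvx neo 0 of the 6 cytosolic and 0 of the 4 mitochondrial factors were called by edgeR, DESeq2 or limma, with 2 and 0 at an unadjusted p below 0.05. Over all genes, edgeR called 5.7% changed there.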

How the data were processed

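RNA of 9 HCT116 libraries was extracted with TRIzol, prepared with the NEBNext Ultra kit and sequenced as Illumina pairs. The authors aligned reads to hg38 with STAR 2.7.1a and Ensembl release 93 and deposited RSEM 1.3.1 expected counts per gene. The deposited tables also hold the authors' TPM, divided by an effective length that differs between libraries. The transcript lengths in the same deposited tables, in bases, were the other measure read. Strand use is not given in the sources used here. Symbols matched 57754 genes (98.9%). Coordinates of genes and exon overlaps are from GENCODE release 44 (hg38).

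Expected counts were rounded. Each comparison was fitted on its 6 libraries with edgeR 4.0.16 (R 4.3.3): filterByExpr, TMM, quasi-likelihood F-test, two-sided, Benjamini-Hochberg over all genes tested, threshold 0.05. SE is the absolute log2 fold change divided by the square root of F. Scripts were tested on simulated data. Alternatives were DESeq2 1.42.0, limma 3.58.1 on log2(TPM + 1) or log2(TPM + 0.1), RLE factors, no filter, all libraries in 1 fit, a replicate block, a 1.5-fold minimum and each library left out. The members, lists and motif were chosen with earlier results of these data known. Full values were given for the 8 cytosolic and 4 mitochondrial genes with the largest called change between STBD1 WT and either other group, the scaffolds, GARS1 and KARS1. QARS1, VARS1, FARSA, NARS1 and NARS2 were added after their values were seen.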

Additional observations from a re-analysis of the deposited data

How the results depend on the processing

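The lower calls of WARS1, CARS1, YARS1, SARS1, GARS1, MARS1, IARS1, AARS1, EPRS1, FARSB, KARS1, TARS1 and EEF1E1 for STBD1 WT vs plvx neo were kept under every alternative fit and with every single library left out. With limma on TPM without a filter, 12 of 19 cytosolic genes were called for STBD1 WT vs plvx neo, 7 for STBD1 W203C vs STBD1 WT and 0 for STBD1 W203C vs plvx neo, and 0, 1 and 0 of the 16 mitochondrial genes. With the filter, limma on log2(TPM + 1) and on log2(TPM + 0.1) gave 0 mitochondrial calls for STBD1 WT vs plvx neo and 4 cytosolic calls for STBD1 W203C vs plvx neo, and DESeq2 gave 3 mitochondrial calls for STBD1 WT vs plvx neo. Requiring 1.5-fold left 3, 0 and 0 cytosolic genes in the 3 comparisons, 0 mitochondrial genes and 0 scaffolds. The cause of these differences was not tested. IARS1 for STBD1 W203C vs plvx neo turned from -0.17 to 0.00 (0.0023, adjusted p = 0.991) under the 3 limma fits of TPM.

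With single libraries left out, the cytosolic count ran from 16 to 18, from 15 to 16 and from 6 to 12 in the 3 comparisons, the mitochondrial count from 2 to 4, from 3 to 5 and from 0 to 0, and the scaffold count from 1 to 2, from 1 to 1 and from 0 to 0. Over all genes, 4254, 4202 and 859 were changed, and with libraries left out 3317 to 3794, 3307 to 3618 and 459 to 818. Limma on log2(TPM + 1) gave 1701, 1779 and 118, on log2(TPM + 0.1) 1703, 1791 and 122, and without a filter 970, 991 and 15. For STBD1 W203C vs STBD1 WT the split was 2178 higher and 2024 lower with counts and 1241 higher and 538 lower with log2(TPM + 1). With a 1.5-fold minimum 541, 471 and 104 genes were left.

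Same-numbered libraries of different groups correlated by -0.0124 to 0.0677 in their deviations from the group means, none above 0.1, so the replicate numbers were not taken as pairs. The replicate block gave 4400, 3662 and 1003 changed genes in the 3 comparisons, of which 4182, 3634 and 853 were also changed without it. Under the block MARS2 (adjusted p = 0.058) and WARS2 (adjusted p = 0.0465) changed sides for STBD1 WT vs plvx neo and QARS1 (adjusted p = 0.0598) for STBD1 W203C vs STBD1 WT, and no other member did.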
